A study of Gallus gallus with 51 samples.

Results

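The SMAD genes were represented by 8 probes, all of those whose name on the array was MADH followed by a single digit. MADH is the older symbol of the SMAD family, so MADH1 is SMAD1, MADH2 is SMAD2 and so on. The 8 probes were MADH1, MADH2, MADH3, MADH4, MADH5, MADH6, MADH7 and MADH9, out of 1509 gene probes and 1536 probes in all. Each was a human 50-mer oligonucleotide from a coding region, and all 8 genes have a chicken gene of the same SMAD number in the RefSeq annotation. SMAD proteins resemble each other closely, so the share of each signal that came from a related SMAD transcript, or was lost to mismatches between the human probe and the chicken transcript, was not tested.

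SMAD proteins carry signals of the transforming growth factor beta (TGF-beta) family from the cell membrane into the nucleus. Receptor-regulated SMADs are phosphorylated by the receptors: SMAD2 and SMAD3 in the TGF-beta and activin branch, and SMAD1, SMAD5 and SMAD9 in the bone morphogenetic protein (BMP) branch. They then bind the common SMAD, SMAD4, and enter the nucleus, where the complex acts on target genes with partner factors, coactivators and corepressors. SMAD6 and SMAD7 are inhibitory SMADs that block the receptors or the complex and are themselves induced by the pathway. In the inner ear, BMP ligands are known as early markers of the sensory patches. Activation of a SMAD is a matter of phosphorylation, which an RNA measurement does not see.

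The samples were cochlear sensory epithelia of White Leghorn chicks (Gallus gallus), taken within weeks of hatching, in which hair cells sit among supporting cells. Whole cochleae were cultured for 24 hr with neomycin, an antibiotic that kills hair cells, or without it, and were harvested at once (0 hr) or after 24 or 48 hr of recovery in fresh medium. Every control was a culture of the same age without neomycin. There were 3 biological replicates per time point, each a pool of several treated epithelia hybridized against a pool of several control epithelia, after amplification of the RNA. The epithelia were removed with thermolysin and no further sorting, so fewer cells of a type and less RNA per cell cannot be told apart.

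Neomycin and control RNA were hybridized together on 51 arrays: 17 at 0 hr, 16 at 24 hr and 18 at 48 hr. Arrays with suffix 3 carried the neomycin RNA in Cy3 and arrays with suffix 5 carried it in Cy5, and each biological replicate had arrays of both kinds. For 1 array, suffix 5 array 3 of 0 hr replicate 3, the image header put the neomycin RNA in Cy5, as the title did, but named Cy5 for the control RNA too. A replicate value is the mean of its suffix 3 and suffix 5 means, as log2 of neomycin over control. In 0 hr replicate 3 the suffix 3 mean was a single array, which thus weighed as much as the 3 suffix 5 arrays together. Signal was weak on many arrays, since between 0 and 81.5% of Cy3 spots and between 0.098% and 89.0% of Cy5 spots lay at or below their local background. The 0 hr replicate 1 stood apart here, with 65.1% of neomycin spots and 59.0% of control spots at or below background over its 7 arrays, followed by 24 hr replicate 1 with 38.7% and 41.9%. In the other 7 replicates these shares were between 0.171% and 9.79%. Markers of the labelled tissue were not detected by the rule given next at any time point (0 of 4 hair cell and 0 of 4 supporting cell markers), nor were those of blood (0 of 2) or periotic mesenchyme (0 of 2). Of 3 ganglion neuron markers 1 was, POU4F1, which was above the limit in 88.2%, 40.6% and 100% of readings at 0, 24 and 48 hr, and its part in the SMAD values was not tested.

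Only MADH2 gave a signal above the negative controls by the detection rule, and only at 48 hr. The limit on each array was the 95th percentile of 38 spots that match no human or chicken gene, taken in the same dye, and a probe was counted as detected where 80% or more of its readings, each from a single dye on a single array and called an array-channel here, exceeded it. MADH2 was above the limit in 19 of 34 array-channels at 0 hr (55.9%), 19 of 32 at 24 hr (59.4%) and 34 of 36 at 48 hr (94.4%). By the same rule the SMAD probes counted as detected were 0, 0 and 1 of 8 at 0, 24 and 48 hr, and the shares of all gene probes were 4.77%, 1.72% and 3.84%.

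For MADH2, the receptor-regulated SMAD of the TGF-beta branch that does not itself bind DNA in its main form, the control RNA exceeded the limit on 12 of 17 arrays at 0 hr, 9 of 16 at 24 hr and all 18 at 48 hr. The neomycin RNA exceeded it on 7, 10 and 16 arrays. The median signal in control RNA was 1.38 times the limit at 0 hr, 1.14 times at 24 hr and 2.05 times at 48 hr, and in neomycin RNA it was 0.850, 1.34 and 1.89 times the limit. So the typical MADH2 spot lay close to the limit at 0 and 24 hr and about a factor of 2 above it at 48 hr, in both RNAs. The 24 hr medians join unlike replicates. In neomycin RNA, replicate 1 ran from 1.05 to 8.90 times the limit, replicate 2 from 0.61 to 0.98 times and replicate 3 from 0.86 to 1.97 times. In control RNA, replicate 1 ran from 0.77 to 2.77 times.

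The other 7 probes lay below the limit on most arrays. MADH3 and MADH4 were each above it in 27 of 102 array-channels over all time points (26.5%), MADH1 and MADH5 in 21 each (20.6%), MADH7 in 19 (18.6%), MADH6 in 13 (12.7%) and MADH9 in 6 (5.88%). Their median signals were between 0.532 times the limit for MADH9 and 0.778 times for MADH4. The median of all gene probes was above the limit in 11.8%, 9.4% and 22.2% of array-channels at 0, 24 and 48 hr, so weak signal was not particular to the SMAD probes. MADH6 was above the limit in 0 of 34 array-channels at 0 hr, 8 of 32 at 24 hr and 5 of 36 at 48 hr. The readings above it all came from replicate 3 of 24 hr and replicate 3 of 48 hr, so these counts do not describe a change with time. MADH9 was above it in 6 of 34 at 0 hr and none of 32 and 36 later. For these 7 genes a log2 ratio was therefore mostly a ratio of signals within the range of the negative controls, and a difference may not have been detectable at this signal. The replicates differed in this. At 48 hr each MADH4 reading of replicate 3 was above the limit (1.08 to 2.77 times it), and each of replicate 1 was below it (at most 0.83 times).

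**Figure D1:**
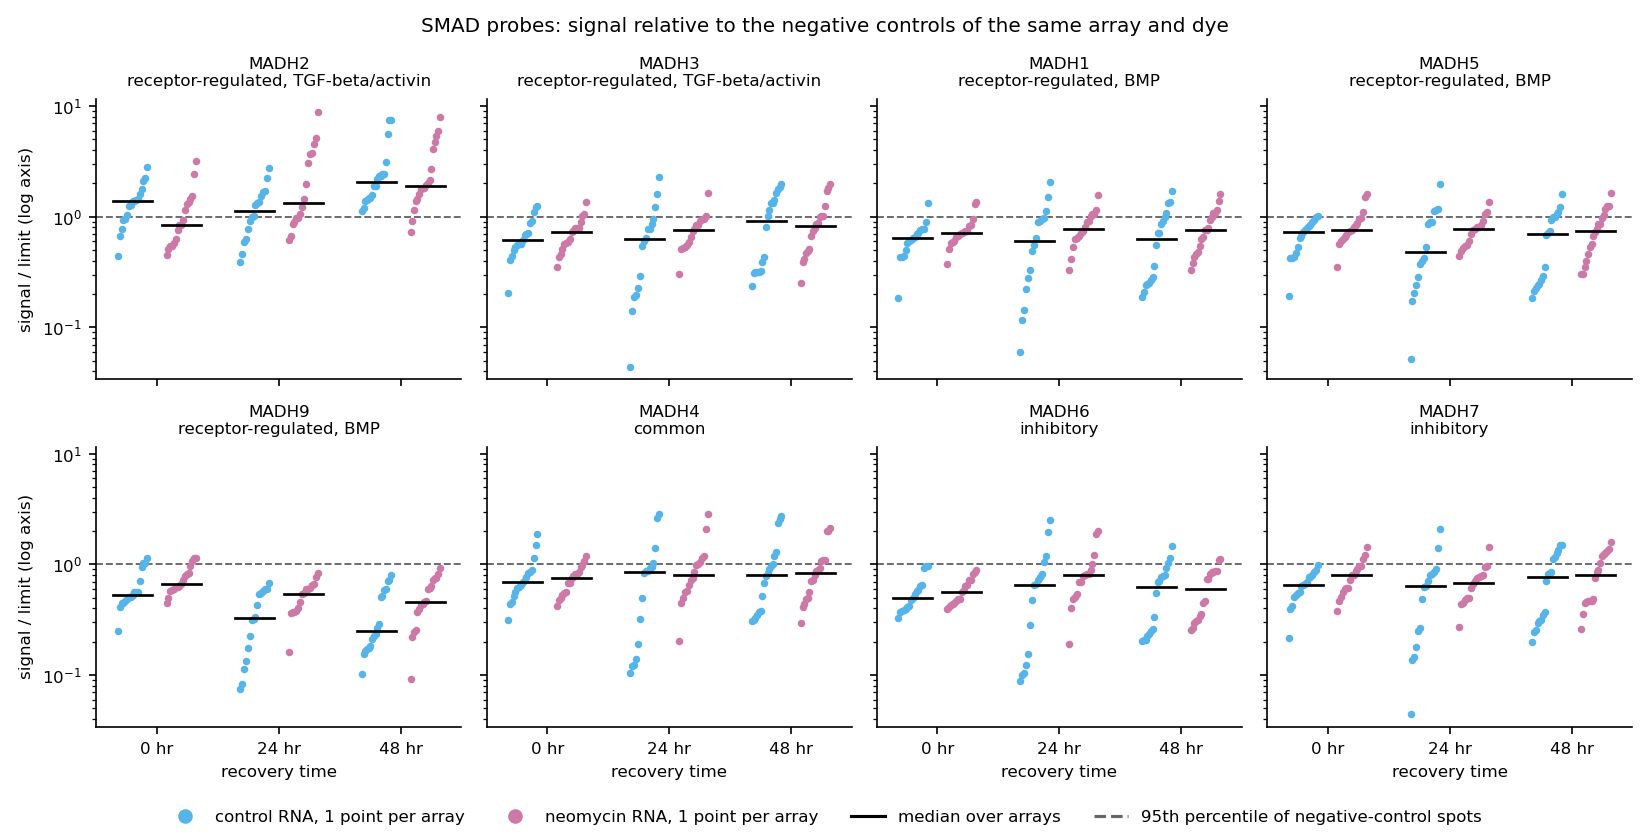
Signal of each SMAD probe as a multiple of its limit, the 95th percentile of negative-control signal on that array in that dye (log axis), by recovery time, for control RNA and neomycin RNA. Each point is 1 array and the bars are medians; the dashed line is the limit, and MADH2 at 48 hr is the case in which 34 of 36 points lie above it.

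The ratio comparison asked whether any SMAD gene was higher or lower in neomycin-treated epithelia than in their time-matched controls. After removal of the dimmest 15% of gene probes, 1282 were tested, among them 7 of the 8 SMAD probes. MADH9 was among the 227 dim probes left out. No SMAD probe passed at an adjusted p of 0.05 at 0, 24 or 48 hr, and neither did any other probe (0% called at each time point). Over all probes the smallest adjusted p-values at the 3 times were 1.00, 0.588 and 0.784. At an unadjusted p under 0.05, 0 of 7 SMAD probes stood at each of the 3 times, against 2.96%, 8.35% and 4.52% of all tested probes (38, 107 and 58 probes).

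MADH2 had the widest spread of the 7. At 0 hr its replicate log2 ratios were -1.46, 0.11 and 0.36, at 24 hr they were 1.09, 0.12 and 0.31, and at 48 hr 0.34, -0.065 and 0.058. The replicate numbered 1 was thus the lowest at 0 hr and the highest at 24 and 48 hr, while those numbered 2 and 3 lay within 0.36 of zero. Same-numbered replicates of different times were not read as pairs, so this does not follow a sample over time. The means were -0.33 ± 0.99 at 0 hr, 0.51 ± 0.51 at 24 hr and 0.11 ± 0.21 at 48 hr (SD, n = 3). Their adjusted p-values in the limma fit were 1.00, 0.724 and 0.941, with 95% intervals of -1.01 to 0.35, -0.18 to 1.19 and -0.57 to 0.80. MADH2 was higher in all 3 replicates at 24 hr, as were 13.1% of all tested probes.

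The negative mean of MADH2 at 0 hr rested on replicate 1. Over all spots this replicate had the largest share at or below background, and the part of this in its MADH2 value was not tested. On its arrays the MADH2 signal was 0.78 to 2.23 times the negative-control limit in control RNA and 0.45 to 1.14 times in neomycin RNA. The suffix 3 and suffix 5 means of this replicate were -1.65 and -1.27. On 6 of its 7 arrays the ratio was between -2.53 and -1.03, and on the remaining array it was 0.26. Without this replicate the mean of MADH2 at 0 hr was 0.23. Without 24 hr replicate 1 the mean at 24 hr was 0.21 in place of 0.51.

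MADH2 also differed by dye orientation. In 8 of 9 replicates its suffix 5 mean was lower than its suffix 3 mean, the exception being 0 hr replicate 1. Averaged over the 9 replicates the suffix 3 mean was 0.42 and the suffix 5 mean -0.23, a difference of -0.65 (95% interval -0.98 to -0.32, unadjusted p = 0.000710 in limma, adjusted p = 0.575 over all tested probes, of which 0% passed). At 48 hr the 3 suffix 3 means were 0.78, 0.41 and 0.37 and the 3 suffix 5 means -0.092, -0.54 and -0.26, so the sign of MADH2 at 48 hr followed the dye in every replicate. The same held at 24 hr for replicates 2 and 3, while replicate 1 was higher with both dyes (1.44 and 0.74).

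MADH3, the DNA-binding receptor-regulated SMAD of the TGF-beta branch, was lower than control in all 3 replicates at 0 hr (-0.29, -0.41 and -0.12) and at 48 hr (-0.10, -0.50 and -0.0027). At 24 hr its replicates were 0.28, -0.16 and -0.33. The means were -0.27 ± 0.15, -0.069 ± 0.31 and -0.20 ± 0.26, with adjusted p-values of 1.00, 0.932 and 0.805. The 0 hr value of replicate 3 depended on the array with the unclear header, which read -0.44: without it the replicate was at 0.0093, and with its sign turned at 0.026, so MADH3 was then lower in 2 of 3 replicates. A mean of -0.27 is a level 1.21 times lower in neomycin RNA, with a 95% interval from -0.62 to 0.070. Single arrays scattered on both sides of zero, between -1.58 and 0.50 at 0 hr and between -0.91 and 0.78 at 48 hr, and were negative on 12 of 17 and 12 of 18 arrays. The dyes gave the same sign in 1 of 3 replicates at each of these times. At 0 hr replicate 1 joined a suffix 3 mean of 0.053 to a suffix 5 mean of -0.64, which included the array at -1.58. Replicate 3 joined -0.32 to 0.080. At 48 hr replicate 1 joined 0.35 to -0.55, and replicate 3 joined 0.072 to -0.077.

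In the BMP branch, MADH1 and MADH5 had means between -0.061 and 0.085 at 0 and 24 hr. The means of MADH1 were -0.051 ± 0.23, 0.085 ± 0.40 and 0.24 ± 0.27 at 0, 24 and 48 hr (adjusted p = 1.00, 0.932 and 0.788). Its replicates at 48 hr were 0.52, 0.23 and -0.026, which is the highest mean of the 7 probes at that time. The 48 hr value of replicate 2 rested on a single array at 1.55, the other 5 lying between -0.23 and 0.15, and without that array the mean of MADH1 at 48 hr was 0.15.

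MADH5 had means of -0.061 ± 0.17, 0.015 ± 0.35 and 0.080 ± 0.069 (adjusted p = 1.00, 0.978 and 0.916). At 48 hr it was higher in all 3 replicates (0.16, 0.036 and 0.044), as were 14.4% of tested probes, but only 8 of 18 arrays were above zero. The same single array of replicate 2 read 1.48 for MADH5, and without it replicate 2 fell to -0.24 and the mean to -0.014. At 0 hr, replicate 1 of MADH5 joined a suffix 3 mean of 0.69 to a suffix 5 mean of -1.13, so its value of -0.22 was the middle of readings that disagreed in sign.

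MADH9, the other BMP-branch receptor-regulated SMAD, was too dim to be tested and its values are given without a test. Its replicates were 0.016, 0.046 and 0.049 at 0 hr, -0.15, 0.32 and 0.28 at 24 hr, and 0.78, -0.069 and 1.19 at 48 hr. The mean of 0.63 ± 0.64 at 48 hr was the largest of the 8 SMAD probes in any direction at any time. It occurred where MADH9 was above the negative-control limit in 0 of 36 array-channels, and where 18 of its 36 control spots were at or below local background. In replicate 3 the 2 suffix 3 arrays read 2.30 and 2.37 and the 2 suffix 5 arrays 0.14 and -0.054. With the dim probes kept in the fit, the adjusted p of MADH9 at 48 hr was 0.723.

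MADH4, the common SMAD that every branch shares, gave the most repeatable values. Its replicates were -0.27, -0.23 and -0.13 at 0 hr, 0.056, -0.059 and 0.054 at 24 hr, and -0.13, -0.11 and -0.22 at 48 hr. The SD between replicates was 0.068, 0.066 and 0.062, and over all 9 replicates it was 0.12, a spread that only 1.17% of tested probes undercut. The means of -0.21, 0.017 and -0.15 had 95% intervals of -0.46 to 0.041, -0.23 to 0.27 and -0.41 to 0.097, and adjusted p-values of 1.00, 0.960 and 0.788. MADH3 and MADH4 were the 2 of 7 tested SMAD probes that were lower in all 3 replicates at 0 hr, against 11.5% of tested probes, and 11.8% were higher in all 3. MADH4 stayed lower in all 3 without the array with the unclear header (replicate 3 at -0.15) and with its sign turned (-0.094), and MADH3 did not.

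The replicates of MADH4 at 24 hr all lay above those at 0 hr, which was so for 3.04% of tested probes, and those at 48 hr all lay below those at 24 hr, which was so for 6.08%. The differences were 0.23 (95% interval -0.13 to 0.58, adjusted p = 0.998) and -0.17 (-0.53 to 0.18, adjusted p = 0.860). Single arrays did not share this tidiness. The duplicate spots of MADH4 on an array differed by a median of 0.25 in log2 ratio, against 0.11 for the median tested probe, and at 24 hr its suffix 3 means (0.47, 0.24 and 0.24) were all positive and its suffix 5 means (-0.35, -0.36 and -0.13) all negative.

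Of the inhibitory SMADs, MADH6, which acts mainly on the BMP branch, had the smallest p of the SMAD probes at 48 hr. Its replicates at 48 hr were -0.39, -0.11 and -0.39, a mean of -0.30 ± 0.16 that corresponds to a 1.23-fold lower level (95% interval -0.61 to 0.018, unadjusted p = 0.0617 and adjusted p = 0.784 in limma). On 15 of 18 arrays the ratio was negative. At 0 hr its replicates were 0.16, -0.25 and -0.096, and at 24 hr 0.40, -0.060 and 0.026. The array with the unclear header read -0.77 for MADH6, and 0 hr replicate 3 was at 0.014 without it and at 0.16 with its sign turned. All 3 replicates at 48 hr lay below all 3 at 24 hr, as for 6.08% of tested probes, and the difference was -0.42 (95% interval -0.87 to 0.025, adjusted p = 0.848). It was -0.77 in suffix 3 arrays alone and -0.069 in suffix 5 arrays alone, and 48 hr replicate 1 joined a suffix 3 mean of -0.80 to a suffix 5 mean of 0.0097. MADH3, MADH4 and MADH6 made up the 3 of 7 tested SMAD probes that were lower in all 3 replicates at 48 hr, against 16.1% of tested probes.

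MADH7, the inhibitory SMAD of both branches, had means of -0.012 ± 0.18, -0.14 ± 0.24 and -0.00071 ± 0.088 (adjusted p = 1.00, 0.836 and 0.998). Its replicates ranged from -0.37 to 0.13 over all times. At 0 hr, replicate 1 joined a suffix 3 mean of 0.67 to a suffix 5 mean of -1.09, with 1 suffix 5 array at -2.18. That array also read -2.02 for MADH5, -1.58 for MADH3 and -1.53 for MADH1, the 4 SMAD probes that lie side by side in 1 row of the array, and between -0.25 and 0.26 for the other 4. At 24 hr the replicates of MADH7 were 0.11, -0.15 and -0.37.

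**Figure D2:**
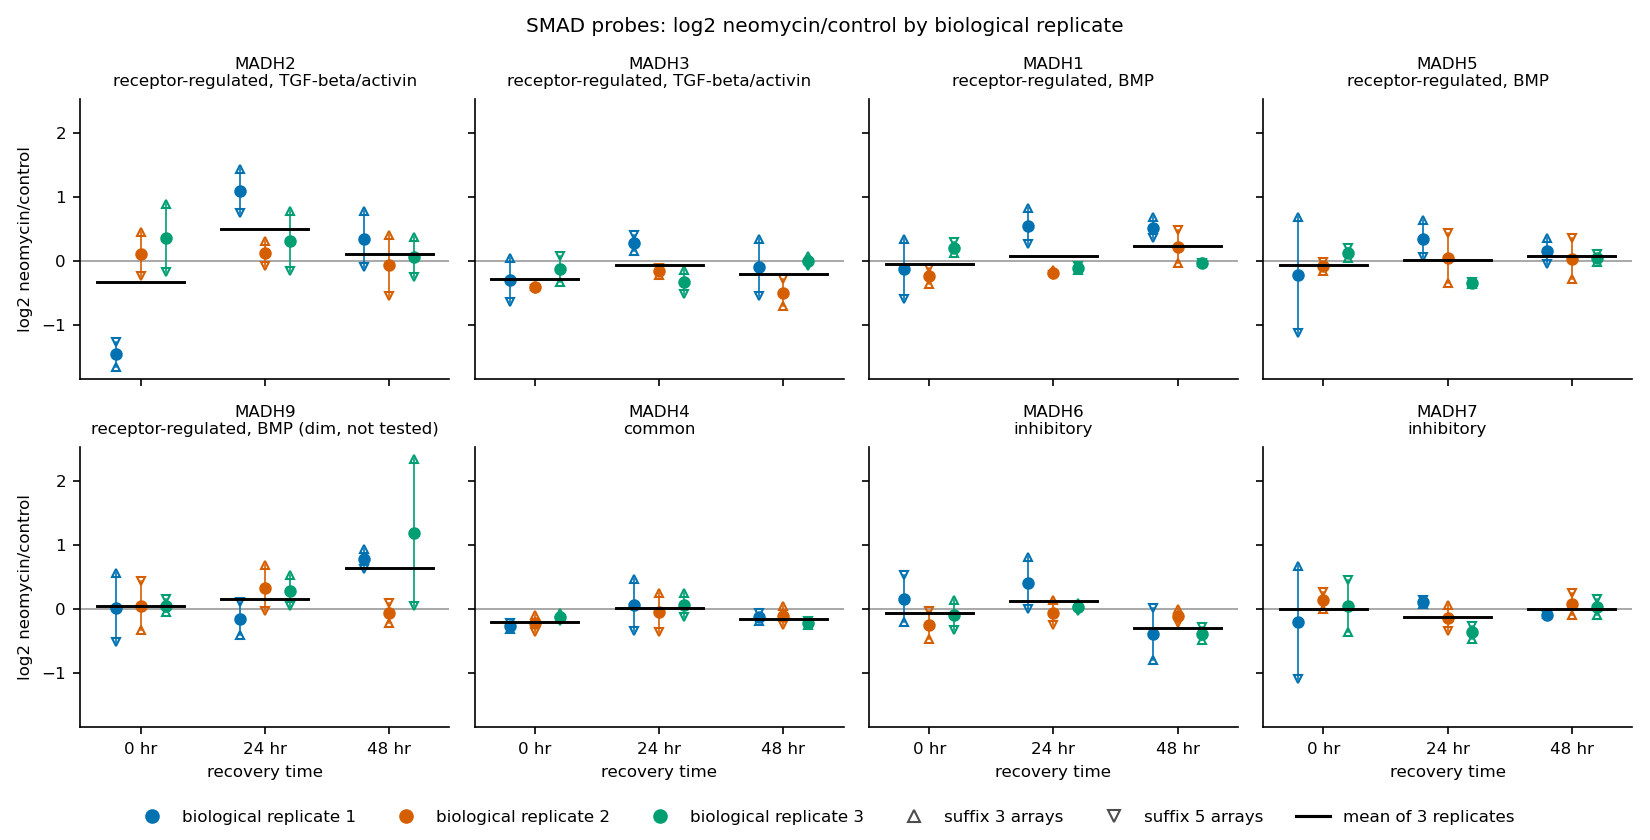
Log2 neomycin/control of each SMAD probe at 0, 24 and 48 hr. Filled circles are the 3 biological replicates, open triangles their suffix 3 and suffix 5 means joined by a line, and black bars the mean of the replicates; MADH2 replicate 1 at 0 hr (-1.46) and MADH9 replicate 3 at 48 hr (1.19) lie farthest from zero.

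By class, the 4 tested receptor-regulated SMADs had medians of -0.17, 0.050 and 0.096 at 0, 24 and 48 hr. MADH4 alone made up the common class, with -0.21, 0.017 and -0.15. The inhibitory SMADs had medians of -0.038, -0.0064 and -0.15, and the 7 probes together -0.063, 0.017 and -0.00071, beside -0.0080, 0.0037 and -0.017 for all 1282. At 0 hr all 7 lay below zero, by between 0.012 and 0.33, as did 51.9% of all tested probes. The sign at 0 hr was the other one for MADH7 in 13, MADH5 in 7, MADH1 in 6, MADH6 in 3 and MADH2 in 1 of 23 alternative treatments of the data. Several of the 23 leave the 0 hr value as it is by design, so the sign could not change in them. At 24 hr 5 were above zero and 2 below, and at 48 hr 3 were above and 4 below, where 49.2% and 53.3% of all tested probes were below.

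The second question was whether the ratio differed between recovery times. No SMAD probe passed between any pair of times (0 of 7 each, with 0% of all tested probes). None had an unadjusted p under 0.05, against 1.33% of all probes from 0 to 24 hr, 3.98% from 24 to 48 hr and 1.48% from 0 to 48 hr. MADH2 had the largest difference, 0.84 from 0 to 24 hr (95% interval -0.13 to 1.80, adjusted p = 0.998), and was 25th of 1282 by size. Without 0 hr replicate 1 this difference was 0.27. From 0 to 48 hr no SMAD probe had its replicates apart, where 2.42% of tested probes had the later ones all higher and 3.67% all lower, and the differences ran from -0.23 for MADH6 to 0.44 for MADH2. For the earlier steps the shares in the remaining directions were 2.34% lower from 0 to 24 hr and 3.98% higher from 24 to 48 hr, with no SMAD probe among them.

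**Figure D3:**
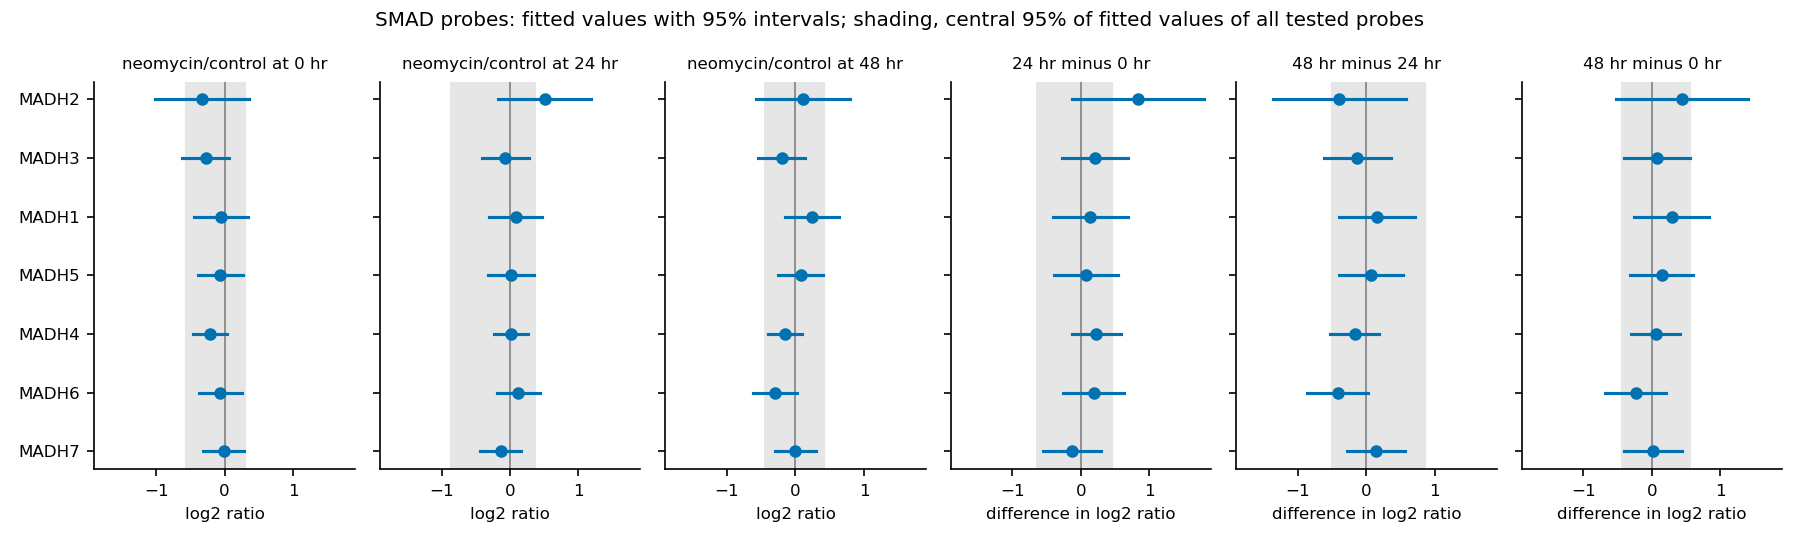
Fitted log2 ratio of the 7 tested SMAD probes at each time point and fitted difference between time points, with 95% intervals from limma. The grey band holds the central 95% of the fitted values of all 1282 tested probes; every interval includes zero, and the point for MADH2 lies outside the band at 24 hr and for 24 hr minus 0 hr.

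The dyes gave the same sign in 33 of the 72 pairs of SMAD probe and replicate: 10 of 24 at 0 hr, 13 of 24 at 24 hr and 10 of 24 at 48 hr. Over all tested probes the same was true of 55.7% of pairs. The SD of the replicate values over all 9 replicates had a median of 0.25 for the 8 SMAD probes, 0.28 for the 19 negative-control probes and 0.29 for the tested probes. At the median, the replicate ratios of the SMAD probes thus varied about as much as those of probes that match no chicken gene. Single SMAD probes ran from an SD of 0.12 for MADH4 to 0.67 for MADH2, which 93.9% of tested probes stayed below.

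The SMAD probes that lie together on the array tended to vary together over the 9 replicates. MADH1, MADH3, MADH5 and MADH7 were spotted next to each other in 1 row, and MADH2, MADH4 and MADH6 in another. The 9 pairs within a row had a median Pearson r of 0.56 (0.051 to 0.76) and the 19 pairs apart had 0.16 (-0.72 to 0.61). The pairs apart include every pair of MADH9, the dim probe that was not tested. Those of MADH9 ran from -0.72 to 0.22 and lower the median of the pairs apart. Pairs apart among the tested probes ran from -0.23 (MADH4 with MADH7) to 0.61 (MADH2 with MADH5). No value for same-row pairs of other genes is given here. The highest values were MADH1 with MADH5 (0.76), both of the BMP branch, MADH3 with MADH5 (0.70), MADH2 with MADH4 (0.69) and MADH5 with MADH7 (0.69), and all 4 pairs share a row. The 11 pairs of 1 class had a median of 0.54, and position and class overlap in 3 of them. These are descriptions over 9 points that share arrays, and the part of position in them was not tested.

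**Figure D4:**
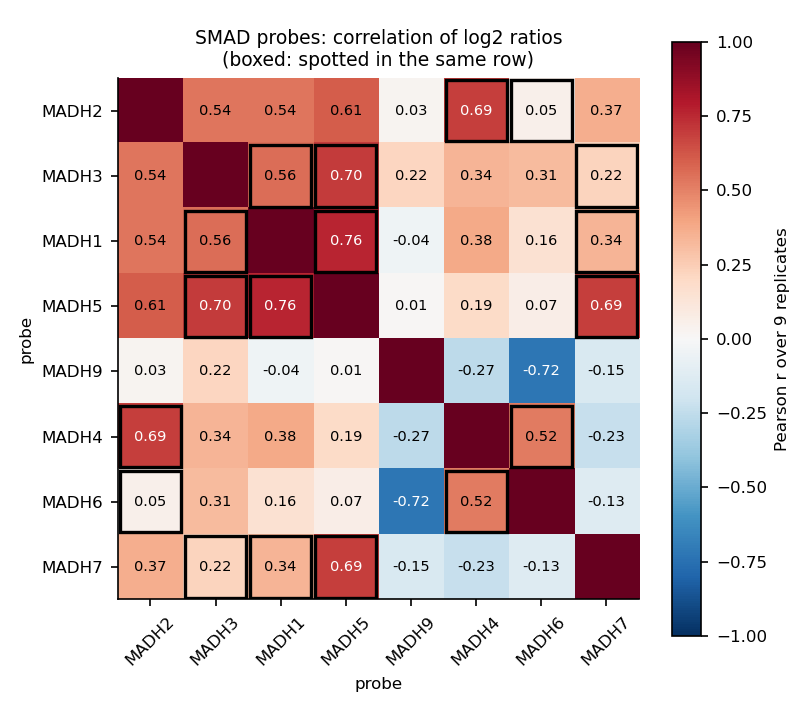
Pearson r of the 9 replicate log2 ratios for every pair of SMAD probes, with pairs spotted in the same row of the array boxed. The boxed pairs run from 0.051 (MADH2 and MADH6) to 0.76 (MADH1 and MADH5), and the lowest value, -0.72, is that of MADH6 and MADH9.

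The probes most like each SMAD probe over the 9 replicates were, by Pearson r, SP3 (0.94) and ARL5 (0.93) for MADH1, AF093680 (0.91) for MADH2, and ZNFN1A1 (0.89) and HOXB13 (0.89) for MADH3. For MADH4 they were TRIP15 (0.81) and PRG2 (0.75), for MADH5 HOXB3 (0.95) and RNF8 (0.92), and for MADH6 TNRC6 (0.96) and EMX1 (0.92). For MADH7 they were PRP17 (0.91) and TGFB1 (0.86), the latter the TGF-beta 1 ligand. These are the highest correlations of each among all tested probes, and no SMAD probe was among another's first 2.

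The genes around the SMADs were counted from lists of the pathway. Of 18 partner transcription factors on the array 12 were tested, and none passed at any time. FOXH1, the forkhead partner of SMAD2 in activin responses, had the smallest p of the list at 0 hr, with replicates of -0.092, -1.09 and -0.54 (mean -0.57 ± 0.50, adjusted p = 1.00). RUNX2, a partner of BMP-branch SMADs in bone, had it at 24 hr, with -0.58, -0.22 and -0.43 (mean -0.41 ± 0.18, adjusted p = 0.588). RUNX2 was below zero in every replicate at 24 hr, as were 13.7% of tested probes. JUN, a subunit of AP-1, had the smallest p at 48 hr, with 0.58, -0.021 and 0.61 (mean 0.39 ± 0.36, adjusted p = 0.784). At an unadjusted p under 0.05 the list held 1 lower gene at 0 hr, 3 lower (FOXH1, RUNX2 and TITF1) and 1 higher (FOXG1A) at 24 hr, and none at 48 hr. Over all tested probes 2.03% were lower by this measure at 0 hr, and 6.16% lower and 2.18% higher at 24 hr.

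All 6 coactivators on the array were tested and none passed. CITED1, a transcriptional coactivator that binds SMAD4, had the smallest p at 0 hr and 24 hr. Its replicates at 0 hr were -0.061, -1.08 and -2.11 (mean -1.09 ± 1.03, adjusted p = 1.00), spread over more than 2 log2 units, and at 24 hr 0.15, -1.18 and -0.66 (mean -0.56 ± 0.67, adjusted p = 0.733). SNW1, a coactivator of nuclear receptors and SMADs, had it at 48 hr with -0.96, -0.22 and -0.043 (mean -0.41 ± 0.49, adjusted p = 0.784). The list medians were -0.029, -0.041 and -0.19 at the 3 times, and 5 of 6 coactivators lay below zero at 48 hr, as did 53.3% of all tested probes. At an unadjusted p under 0.05 the list held CITED1, lower, at 0 hr, where 2.03% of all tested probes were, and no gene at 24 or 48 hr.

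Of 10 corepressors on the array 7 were tested and none passed. E2F5, a partner of SMAD3 in the repression of MYC, had the smallest p at each time. It was higher in all 3 replicates at 0 hr (0.28, 0.16 and 0.70), as were 11.8% of tested probes. At 24 hr it was lower in all 3 (-0.39, -0.27 and -0.32), as were 13.7% of tested probes. At 48 hr it was higher in 2 of 3 (0.48, -0.19 and 1.13). Its adjusted p-values were 1.00, 0.733 and 0.784. The median of the list was 0.025, -0.15 and 0.061, and 6 of 7 lay below zero at 24 hr, as did 49.2% of all tested probes. At an unadjusted p under 0.05 the list held E2F5, higher, at 48 hr, where 1.87% of all tested probes were, and no gene at 0 or 24 hr.

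Of 19 genes listed as responding to TGF-beta or BMP, not all of them direct SMAD targets, 17 were tested and none passed. The place of ETV1 and ELF3 in the list is uncertain, since they are less well established as responding genes. TIEG, an early TGF-beta-inducible zinc finger gene now named KLF10, had the smallest p at 0 hr, with 0.15, 1.34 and 0.43 (mean 0.64 ± 0.62, adjusted p = 1.00). ID4, one of the ID family of BMP-responsive helix-loop-helix inhibitors, had it at 24 hr, with -0.21, -0.88 and -0.052 (mean -0.38 ± 0.44, adjusted p = 0.628). ETV1, an ETS-family factor, had it at 48 hr, with -1.78, -0.88 and -0.52 (mean -1.06 ± 0.65, adjusted p = 0.784), and its unadjusted p of 0.000836 was the smallest of all 1282 probes at that time. The list medians were -0.085, -0.12 and -0.042. At an unadjusted p under 0.05 the list held TIEG, higher, at 0 hr and ETV1, lower, at 48 hr, beside 0.936% of all tested probes higher at 0 hr and 2.65% lower at 48 hr.

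The array also carried the ligand TGFB1 and the co-receptor TGFBR3, also called betaglycan. TGFB1 had replicates of -0.042, 0.24 and 0.25 at 0 hr, 0.33, -0.40 and -0.63 at 24 hr, and 0.046, -0.044 and 0.072 at 48 hr. TGFBR3 had 0.15, -0.62 and -0.38, then -0.21, -4.6e-05 and -0.032, and then -0.96, 0.10 and -0.024. Neither gene kept one sign over the replicates at more than 1 time point, and their adjusted p-values lay between 0.781 and 1.00.

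**Figure D5:**
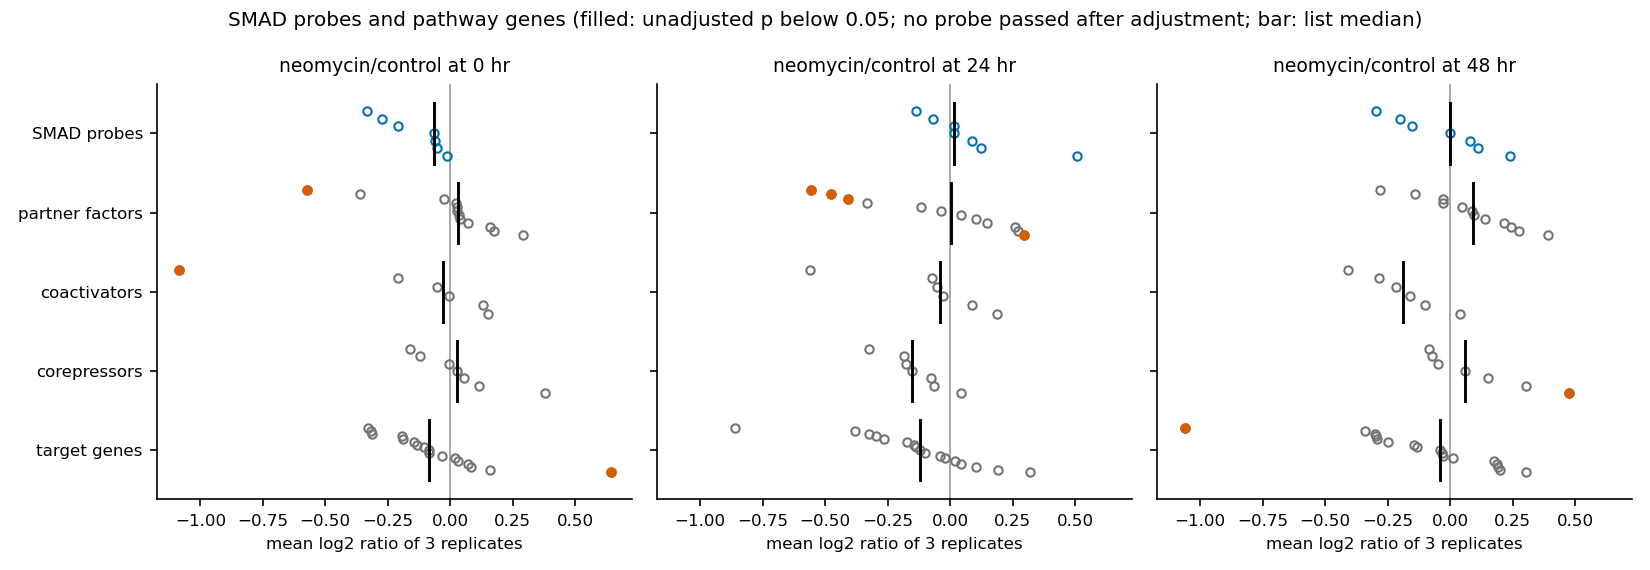
Mean log2 neomycin/control of 3 replicates for each tested SMAD probe and each tested gene of the 4 pathway lists, at 0, 24 and 48 hr. Each point is 1 probe, spread vertically in order of its value, filled points have an unadjusted p below 0.05 and bars are list medians; no filled point belongs to a SMAD probe and none passed after adjustment.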

How the data were processed

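The deposited files hold, per array and dye, the spot intensity (signal and local background) that the authors measured with ImaGene and did not normalize. A deposited matrix holds log2 ratios of neomycin over control, equal in all 51 columns to the log2 ratio of the signal means, without normalization. Orientation was taken from the titles and image headers, which for 1 array named Cy5 for both RNAs; leaving it out and turning its sign were alternatives chosen after seeing the data. Background was corrected with normexp (offset 50), ratios were normalized by loess within arrays with control spots at weight 0, and duplicate spots were averaged. Array ratios were averaged within suffix and then over suffixes. The dimmest 15% of gene probes (227 of 1509) were left out. The authors' methods also filter on intensity, but by a cut based on control spots, so the probes removed can differ. The fit used limma 3.58.1 in R 4.3.3 on the 9 replicates, with Benjamini-Hochberg adjustment over 1282 probes in each comparison and a threshold of 0.05. The precision is limited by the number of replicates, and the labels do not say that they came from separate animals, so p-values measure only the spread between these samples. The fit was tested on simulated data, with changes larger than any value fitted for a tested SMAD probe. It therefore does not show whether changes as small as those of the SMAD probes would be found. Sequences and chicken coordinates were not used here. List genes without a matching probe were not analysed here. Genes were named by rule: all SMAD probes, the list gene with the smallest p at each time point and the 2 probes most alike (1 of them is not reported here), and POU4F1, ELF3, FOXG1A, TITF1, TGFB1 and TGFBR3 were named after their values were seen. The members and lists were chosen with earlier results of these data known.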

Additional observations from a re-analysis of the deposited data

Results flagged for a closer look

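Within a biological replicate of 4 to 8 arrays, an array was picked out where its gap to the nearest other array was large for the range of the replicate (Dixon's 95% limit). This happened in 8 of the 72 groups of SMAD probe and replicate. Chance alone picks out about 1 in 20 groups where these are independent and of 1 kind of reading. The 72 groups share arrays and each joins both suffixes, so the count was not read as an excess. All 8 readings came from suffix 5 arrays, 3 of them from a single array. The same count was not made over all tested probes, so this was not read as a difference between the dyes. In 48 hr replicate 2, suffix 5 array 1 was past the limit for 3 of the 4 SMAD probes of 1 row: 1.55 for MADH1, where the others lay between -0.23 and 0.15, 1.48 for MADH5, where they lay between -0.36 and -0.17, and 0.74 for MADH3, where they lay between -0.91 and -0.62. Without it the replicate means were -0.039, -0.24 and -0.76 in place of 0.23, 0.036 and -0.50. It was also the highest of the 6 arrays for MADH7 (0.74), the other probe of that row, and for MADH9 (0.35), within the limit for both. For the SMAD probes of another row it was the lowest of the 6: -1.05 for MADH2, -0.38 for MADH4 and -0.33 for MADH6, each within the limit. In 0 hr replicate 1, suffix 5 array 3 read -1.53 for MADH1 (others -0.32 to 0.39), and suffix 5 array 1 read 1.44 for MADH6 (others -0.42 to 0.23). In 0 hr replicate 3, suffix 5 array 1 read 0.84 for MADH1 (others 0.013 to 0.13). In 24 hr replicate 1, suffix 5 array 2 read 1.34 for MADH3 (others -0.065 to 0.59). In 24 hr replicate 3, suffix 5 array 1 read -0.56 for MADH9 (others 0.47 to 0.65).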

How the results depend on the processing

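No SMAD probe was called in the 6 comparisons under the alternatives run, with the exceptions given next. They covered background correction, normalization, signal medians, the deposited matrix, the dim filter, single-array fits, 1 dye orientation, and leaving out arrays or each replicate in turn (0 to 0 called), and, chosen after seeing the data, leaving out or turning the array with the unclear header (0 called). Exceptions came from the methods' t-test over single arrays taken as independent, with a 1.2-fold limit and unadjusted p. It called 1 SMAD probe at 24 hr (MADH2, 0.61) and 2 at 48 hr (MADH1, 0.30, and MADH6, -0.30), beside 14.9% and 24.7% of all probes, and no SMAD probe after adjustment. The study's further rules, a shared trend over hybridizations and removal of poor hybridizations, were not applied, so these are not the study's calls. Over all probes, called counts at 0, 24 and 48 hr were 0 in each in the reported fit, and in single-array fits 0, 37 and 4 with replicate as a random block, 52, 29 and 2 with array weights added, and 8, 70 and 41 with quantification day as the block, while the methods' t-test over single arrays called 0, 64 and 41 after Benjamini-Hochberg adjustment. None of these was a SMAD probe, and the cause was not tested. With the replicate number as a block the count stayed at 0, and deviations of same-numbered replicates correlated by -0.16 to 0.065, so the numbers were not read as pairs. Signs were less stable than calls: over 23 alternatives 2, 2 and 3 of 7 SMAD ratios kept their sign at 0, 24 and 48 hr (MADH3 and MADH4; MADH2 and MADH7; MADH3, MADH4 and MADH6). Several of the 23 cannot change a sign, such as keeping the dim probes or leaving out an array of another time point. Detection depended on the limit: against the median of the negative controls 1, 2 and 2 SMAD probes were detected at 0, 24 and 48 hr, and with a rule of 50% of array-channels 1 at each time. The shares of all gene probes under these looser rules are not given here, so these counts have no background beside them. The 14 quantification days held 1 time point each except 1 day, shared by replicate 2 of 0 and 48 hr, on which 48 minus 0 hr ran from -0.17 (MADH2) to 0.40 (MADH1), so day and time point cannot be told apart elsewhere.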
